A study of Mus musculus with 6 samples.

Results

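The genes of cholesterol synthesis, uptake and efflux were followed in whole livers of 35 week old mice, with 3 independent mice per genotype. The members are 30 named genes, found in the table by symbol. The rule that finds them uses no measured value, but the list was drawn up with earlier results of these data known. Of these, 29 had a row (Msmo1 under its older symbol Sc4mol), out of 23224 rows in all, and Hmgcs1 was not analysed here. All 29 passed the filter on low counts, which left 13058 genes to test. The PKM2 KO mice lack PKM2, an isoform of pyruvate kinase at the end of glycolysis, in the germline, so every cell type of the liver carries the deletion. The WT mice have the gene intact. All mice shared a mixed C57BL/6J x 129SvJ background and received no treatment, and the labels give neither sex, litter nor feeding state.

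Hepatocytes make cholesterol from acetyl-CoA through mevalonate and squalene, and the transcription factor SREBP-2 drives the enzymes of the whole route. When sterols are scarce in the endoplasmic reticulum, the escort protein Scap carries SREBP-2 to the Golgi for cleavage. When sterols are plentiful, the Insig proteins hold Scap back. Cholesterol leaves the hepatocyte through ABC transporters into blood or bile, or is stored as esters made by the sterol O-acyltransferases.

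RNA selected for poly(A) was sequenced from each liver, and the values are expected counts, the reads that RSEM assigns to each gene. Library totals were 27727048 to 33756104 in PKM2 KO livers and 27795400 to 36125711 in WT livers. The row of the targeted gene, Pkm2, sums both splice forms and was at 7.621 ± 1.78 CPM (counts per 1000000, scaled by TMM) in PKM2 KO livers and 21.05 ± 5.34 CPM in WT livers (SD, n = 3 each), without overlap. Hepatocyte markers were abundant in every library, with 8 of 8 present and sums of 103000 to 113000 CPM in PKM2 KO livers and 74900 to 108000 CPM in WT livers. WT 1 and WT 2 stood apart by transcripts of the exocrine pancreas. The 13 acinar markers summed to 16.3 to 35.3 CPM in PKM2 KO livers and to 3160, 9060 and 24.1 CPM in WT livers 1 to 3. The 10 acute phase genes reached 23400 CPM in WT 2, against 6900 to 10100 CPM in PKM2 KO livers and 6900 and 12300 CPM in WT 1 and WT 3. The log2 fold change against WT 3 alone is therefore also given for the median and for each gene of the plot by liver where it turned round or moved by over 1.5 times.

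Promoter sequences are shown for the members whose livers did not overlap between genotypes, as far as RefSeq start sites were at hand, and for the Abcg5 and Abcg8 pair, whose start sites face away from each other. They come from RefSeq on build GRCm38.p6, run 5′ to 3′ on the gene's strand (plus strand for the pair) and end at the base before the start of transcription. Capitals mark the NF-Y box CCAAT, read on either strand, where the factor NF-Y binds beside SREBP in many sterol gene promoters. The stretch is 250 bases for Insig1, whose box is centred at -214 from the start, and 150 bases for the other single genes. Further boxes centred at -163 for Hsd17b7 and -168 for Ebp lie beyond the bases printed. Insig2 has 3 start sites in RefSeq, and the outermost is shown. All NF-Y boxes found for Insig2 lie before that start, and none was found around its other starts.
Insig1, chr5:28071162-28071411, plus strand: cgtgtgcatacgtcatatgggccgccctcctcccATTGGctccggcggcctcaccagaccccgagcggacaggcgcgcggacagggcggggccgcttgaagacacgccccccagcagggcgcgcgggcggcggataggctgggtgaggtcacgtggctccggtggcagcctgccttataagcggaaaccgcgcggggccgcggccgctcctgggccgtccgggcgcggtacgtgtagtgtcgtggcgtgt
Insig2, chr1:121332590-121332739, minus strand: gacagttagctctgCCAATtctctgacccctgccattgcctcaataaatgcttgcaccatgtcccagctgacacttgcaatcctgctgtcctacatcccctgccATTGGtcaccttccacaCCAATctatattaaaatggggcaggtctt
Hsd17b7, chr1:169969206-169969355, minus strand: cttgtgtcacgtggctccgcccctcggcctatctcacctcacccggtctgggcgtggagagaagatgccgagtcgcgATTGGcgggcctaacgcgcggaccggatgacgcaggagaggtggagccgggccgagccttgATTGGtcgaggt
Ebp, chrX:8193513-8193662, minus strand: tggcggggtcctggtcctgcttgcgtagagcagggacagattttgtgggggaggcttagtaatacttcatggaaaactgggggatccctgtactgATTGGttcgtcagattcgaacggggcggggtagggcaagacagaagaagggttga
Soat1, chr1:156474329-156474478, minus strand: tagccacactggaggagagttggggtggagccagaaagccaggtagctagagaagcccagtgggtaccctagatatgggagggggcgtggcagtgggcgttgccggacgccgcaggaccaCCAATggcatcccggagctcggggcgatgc
Abcg5-Abcg8 interval, chr17:84683012-84683120, plus strand: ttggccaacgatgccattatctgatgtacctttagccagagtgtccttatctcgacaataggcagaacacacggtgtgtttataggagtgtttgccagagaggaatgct

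Windows of 300 bases (250 before and 50 after a start site) were found for 24 of the 29 tested members. An NF-Y box, CCAAT on either strand, was present for 21 of these 24 members (87.5%), against 41.1% of 27025 genes with windows and 43.4% of the genes that were both tested here and matched. By window it was present in 21 of 31 member windows (67.7%), against 37.4% of 32851 windows. In 12 members at least 2 boxes lay in the same window, and 24 of the 41 distinct boxes were centred 20 to 120 bases before a start. Of these 41, 1 lies in the windows of both Abcg5 and Abcg8 and is the box that counts for Abcg5. The boxes fell in genes with positive and with negative fold changes alike, since Ebp and Soat1 carry them as well as Insig1, Insig2 and Hsd17b7. The E-box CACGTG, also bound by SREBP and other factors, was found for 6 of the 24 members (25%). It was found for 8.09% of all genes and 11.6% of the genes that were both tested here and matched. By its letters it cannot overlap an NF-Y box, while the GC box below can share bases with one. The GC box GGGCGG was found for 21 members, against 38.2% of all genes and 66.4% of the genes that were both tested here and matched. The sterol regulatory element core TCACNCCAC was found in none of the 24 members' windows and in 1.44% of all genes. Its shorter form CACNCCAC, contained in it, was found for Acat2 and Insig1 and for 7.12% of all genes.

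**Figure D1:**
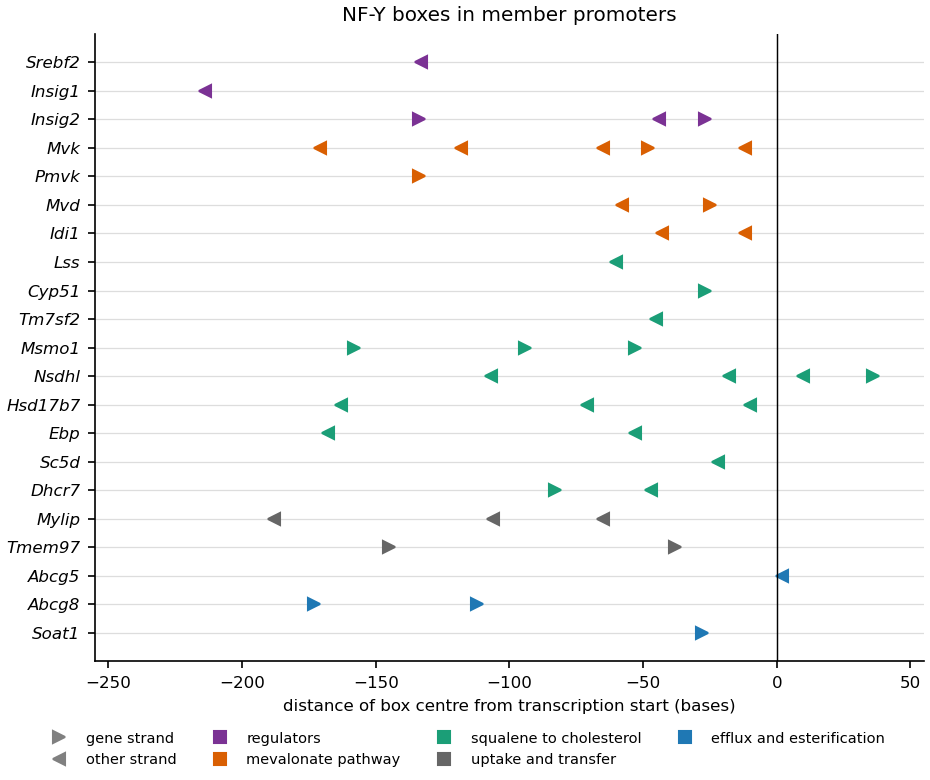
Position of each NF-Y box (triangle, pointing right on the gene's strand and left on the other) relative to the start of transcription, in bases, for the 21 members that have one. Of the 41 distinct boxes, 24 lie 20 to 120 bases before a start, and the 1 shared by Abcg5 and Abcg8 is drawn for each.

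The comparison of genotypes asks which sterol genes differ when PKM2 is absent. No member passed the threshold. A positive fold change was found for 21 of 29 (72.4%), against 47.6% of all genes and 75% of the 8 hepatocyte markers. Insig1 and Insig2, the brakes of SREBP activation, the storage enzyme gene Soat2 and the synthesis enzyme genes Fdft1 and Hsd17b7 were higher in every PKM2 KO liver than in every WT liver. Soat1 and, by a small margin, Ebp were lower in every PKM2 KO liver. Over all genes tested, 5.8% were higher and 6.27% lower without overlap, so 2 lower of 29 is near the share of all genes. Srebf2 and Scap differed by less than the spread between livers.

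Of the 29 members, 0 passed an adjusted p of 0.05 in edgeR's quasi-likelihood test over all genes, where 0.0153% of genes were called higher and 0.00766% lower. DESeq2 called 1 member, Insig1, where it called 0.743% of all genes, and limma voom called 0, where it called 0.0383%. At an unadjusted p under 0.05, 4 members were higher (Insig1, Insig2, Mvd and Soat2), where 2.87% of all genes were, and 1 was lower (Soat1), where 4.37% of all genes were. The livers did not overlap for 5 members higher and 2 lower, against 5.8% and 6.27% of all genes. Fold changes were positive for 21 of 29 members (72.4%), against 47.6% of all genes. The median log2 fold change was 0.15, against -0.01 over all genes tested. Hepatocyte markers had a like share and median, with 6 of 8 positive (75%) and a median of 0.14. They ranged from -0.32 to 0.46, and none passed the threshold. The part of hepatocyte content in the members' fold changes was not tested. The members' median was 0.0851 without WT replicate 3 and 0.29 against WT 3 alone.

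**Figure D2:**
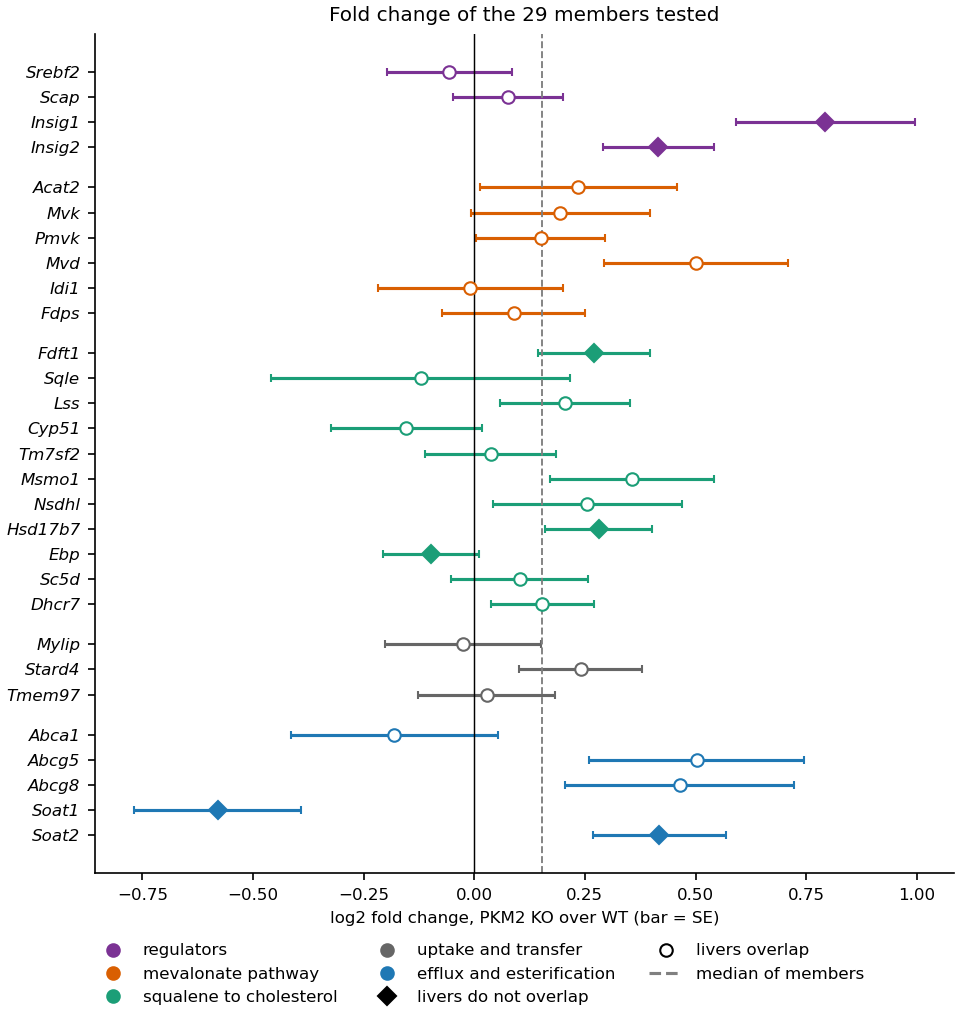
Log2 fold change of PKM2 KO over WT for the 29 members tested, by role, with bars for the approximate SE. Filled diamonds are the 7 members whose livers did not overlap, and the dashed line is the median of 0.15. Insig1 lies farthest to the right at 0.79 and Soat1 farthest to the left at -0.58.

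Among the regulators, Srebf2, which encodes SREBP-2, had 50.8, 54.1 and 48.7 CPM in PKM2 KO livers 1 to 3, against 43.9, 62 and 53.8 CPM in WT livers 1 to 3. The WT livers spanned the PKM2 KO livers on both sides (log2 fold change -0.06, SE 0.142, adjusted p = 0.96). Without WT replicate 2 the log2 fold change was 0.0689. Scap had 116, 132 and 115 CPM in PKM2 KO livers, against 118, 102 and 124 CPM in WT livers (log2 fold change 0.08, SE 0.124, adjusted p = 0.939). The groups overlapped, and the sign was negative without WT replicate 2 (-0.00193) and against WT 3 alone (-0.0369).

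Insig1, itself a target of SREBP, had 462, 337 and 377 CPM in PKM2 KO livers 1 to 3, against 172, 240 and 267 CPM in WT livers 1 to 3. The lowest PKM2 KO liver was above the highest WT liver, and WT 1 was the lowest of all. The difference was 73.3% (log2 fold change 0.79, SE 0.202), with an adjusted p of 0.566 in edgeR and 0.0167 in DESeq2. Leaving out each liver in turn gave log2 fold changes of 0.638 to 0.933. Insig2, the paralog that is not driven by SREBP in liver, had 140, 143 and 149 CPM in PKM2 KO livers, against 124, 98 and 102 CPM in WT livers. The PKM2 KO livers lay within 1.06-fold of each other and above all WT livers, which spanned 1.26-fold. The log2 fold change was 0.42 (SE 0.125, adjusted p = 0.566), and 0.352 to 0.53 with each liver left out in turn.

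The count of Insig1 relative to Insig2 within a liver was 3.3, 2.36 and 2.53 in PKM2 KO livers and 1.4, 2.44 and 2.61 in WT livers. Both genes were thus higher in PKM2 KO livers without a separation of their ratio (exact permutation test, two-sided p = 0.5, adjusted p = 0.5 over 4 ratios, with 0.1 the smallest p that 3 against 3 livers allow).

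**Figure D3:**
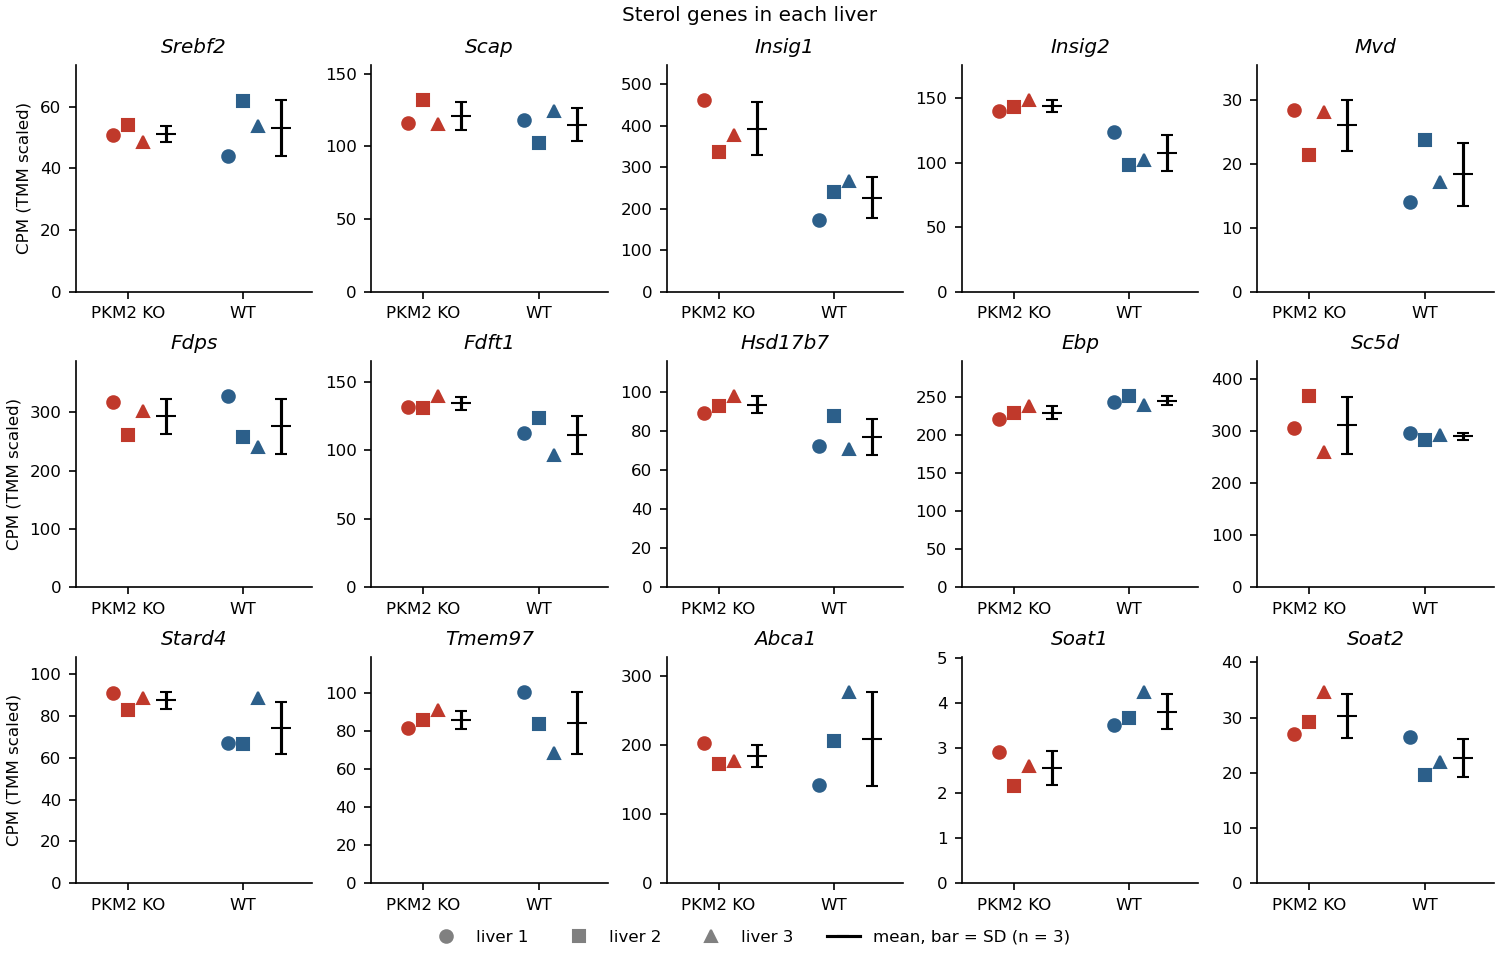
Level in CPM with TMM scaling of 15 members in each liver, PKM2 KO in red and WT in blue, with marker shapes for livers 1 to 3 and the mean with its SD (n = 3) beside them. Insig1, Insig2, Fdft1, Hsd17b7 and Soat2 are higher in all PKM2 KO livers, Soat1 and Ebp are lower, and the other panels overlap.

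In the mevalonate pathway, which turns acetyl-CoA into the isoprenoid building blocks, 5 of 6 tested members had a positive fold change and none separated the genotypes. Mvd, which makes isopentenyl diphosphate, had 28.5, 21.4 and 28.2 CPM in PKM2 KO livers 1 to 3, against 14.1, 23.8 and 17.2 CPM in WT livers 1 to 3. Only WT 2 lay within the PKM2 KO range (log2 fold change 0.50, SE 0.207, adjusted p = 0.679). Fdps, which makes farnesyl diphosphate, had 318, 260 and 301 CPM in PKM2 KO livers, against 328, 258 and 240 CPM in WT livers. The highest and the lowest of its 6 values were both WT livers (log2 fold change 0.09, SE 0.161, adjusted p = 0.946). The log2 fold change was 0.00357 without WT replicate 3, 0.24 without WT replicate 1 and 0.29 against WT 3 alone.

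Acat2, the thiolase that condenses acetyl-CoA at the head of the pathway, ranged over 99.5 to 107 CPM in PKM2 KO livers and over 63.3 to 120 CPM in WT livers (log2 fold change 0.24). The kinase genes Mvk and Pmvk, which phosphorylate mevalonate in succession, had log2 fold changes of 0.19 and 0.15. Idi1, the isomerase of isopentenyl diphosphate, averaged 249.2 ± 26 CPM in PKM2 KO livers and 250.8 ± 71.6 CPM in WT livers (log2 fold change -0.01, adjusted p = 0.993). The livers spanned 1.23-fold within PKM2 KO and 1.61-fold within WT for Idi1.

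From squalene to cholesterol, 8 of 11 members had a positive fold change. Fdft1, squalene synthase, had 132, 131 and 140 CPM in PKM2 KO livers 1 to 3, against 113, 124 and 96.7 CPM in WT livers 1 to 3. No WT liver reached the PKM2 KO livers (log2 fold change 0.27, SE 0.126, adjusted p = 0.718, and 0.478 against WT 3 alone). Hsd17b7, the reductase that removes the keto group during C4 demethylation of sterols, had 89.4, 92.8 and 98.1 CPM in PKM2 KO livers, against 72.2, 87.5 and 71 CPM in WT livers. WT 2 was nearest to the PKM2 KO livers (log2 fold change 0.28, SE 0.121, adjusted p = 0.691). Ebp, the isomerase that shifts a sterol double bond, had 221, 229 and 238 CPM in PKM2 KO livers, against 244, 252 and 240 CPM in WT livers. The groups were separated by a narrow gap (log2 fold change -0.10, SE 0.109, adjusted p = 0.905), they overlapped with scaling by library totals, and the log2 fold change was -0.0604 against WT 3 alone.

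Sc5d, the desaturase that makes 7-dehydrocholesterol, had 306, 368 and 259 CPM in PKM2 KO livers, against 296, 282 and 292 CPM in WT livers. Here the WT livers lay close together inside the PKM2 KO range (log2 fold change 0.10, SE 0.154, adjusted p = 0.931), and without PKM2 KO replicate 2 the log2 fold change was -0.0356. Msmo1, a sterol C4 oxidase, averaged 220.5 ± 18 CPM in PKM2 KO livers and 172.2 ± 42.2 CPM in WT livers (log2 fold change 0.36, adjusted p = 0.75). Lss, which closes squalene epoxide into lanosterol, had a log2 fold change of 0.20, Nsdhl, the decarboxylating dehydrogenase of C4 demethylation, 0.26, and Dhcr7, which reduces 7-dehydrocholesterol to cholesterol, 0.15. Tm7sf2, a sterol C14 reductase, was at 0.04 and Cyp51, the C14 demethylase, at -0.15. All of these overlapped between genotypes, at adjusted p values of 0.75 to 0.976.

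Sqle, squalene epoxidase, is given by liver because of its wide range, a choice made after its values were seen. Its levels were 62.3, 59.6 and 86.8 CPM in PKM2 KO livers 1 to 3, against 42.3, 114 and 71.3 CPM in WT livers 1 to 3. WT 1 was the lowest and WT 2 the highest of all, with a 1.46-fold range within PKM2 KO against 2.69-fold within WT (log2 fold change -0.12, SE 0.337, adjusted p = 0.965). The count of Insig1 relative to Sqle was 4.34 to 7.4 in PKM2 KO livers and 2.11 to 4.08 in WT livers, at the smallest two-sided p that the exact permutation test allows here (0.1, adjusted p = 0.2 over 4 ratios). Insig1 separated the genotypes by itself, so this ratio is not a result apart from that one.

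Individual WT livers ordered the enzymes in a like way. Over the 17 synthesis enzymes, WT 2 was the highest WT liver for 11 (64.7%) and WT 3 the lowest for 11, where over all genes tested WT 2 was the highest for 32.9% and WT 3 the lowest for 35.2%. Relative to the WT mean, the difference of the median enzyme on the log2(CPM + 1) scale was 0.221, 0.171 and 0.219 in PKM2 KO 1, 2 and 3, against -0.0351, 0.191 and -0.174 in WT 1, 2 and 3. WT 2, the liver with the highest acinar and acute phase sums, was thus within the PKM2 KO range for the enzymes, and WT 1 and WT 3 were below it. The part of these other transcripts in the enzyme levels was not tested. Spread was wider among WT livers than among PKM2 KO livers for 26 of 29 members (89.7%), against 70.8% of all genes. The median SD of the members was 0.124 in PKM2 KO livers and 0.258 in WT livers on that scale, and over all genes it was 0.122 and 0.19 in the same order.

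**Figure D4:**
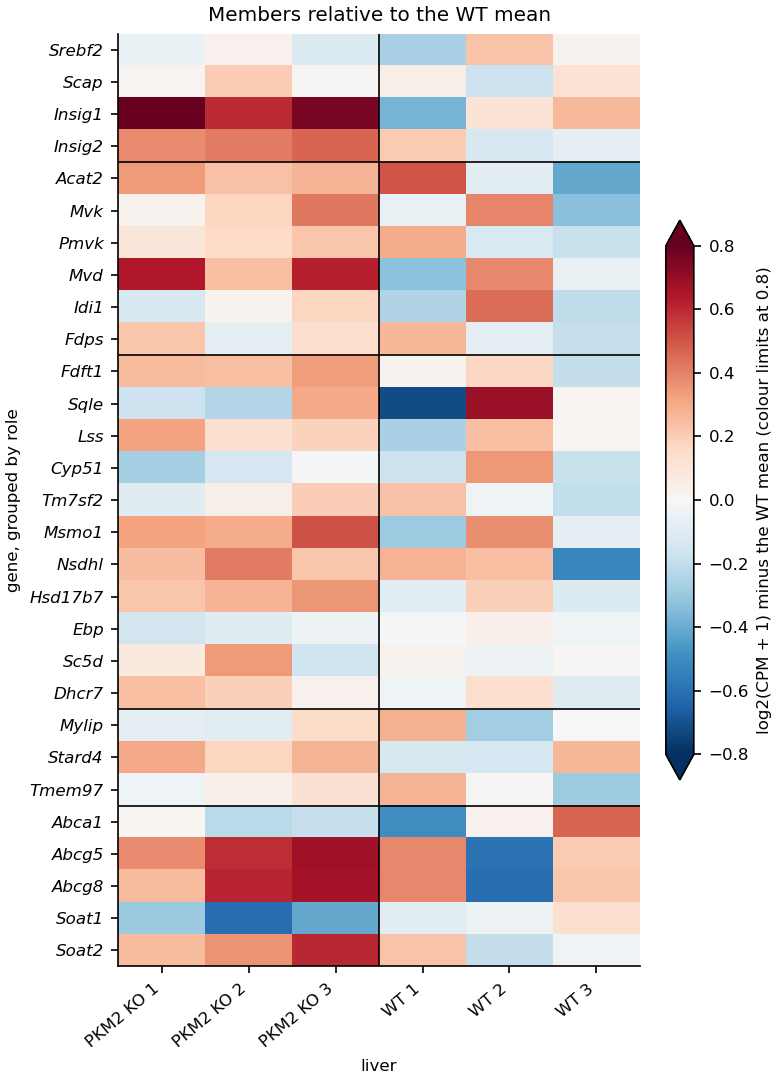
Level of each of the 29 members in each liver as log2(CPM + 1) minus the mean of the WT livers, with PKM2 KO livers on the left and genes ordered by role. Insig1 and Insig2 are above the WT mean in all PKM2 KO livers, and Sqle runs from the lowest in WT 1 to the highest in WT 2.

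The members of uptake and sterol transfer were only 3 genes, Stard4, Tmem97 and Mylip, and none of them separated the genotypes. Stard4, which moves sterols through the cytosol, had 90.9, 83 and 88.7 CPM in PKM2 KO livers 1 to 3, against 67.1, 66.7 and 88.4 CPM in WT livers 1 to 3. WT 3 lay within the PKM2 KO livers and the other WT livers below them (log2 fold change 0.24, SE 0.139, adjusted p = 0.767), so that against WT 3 alone the log2 fold change was -0.0109. Tmem97, a sterol-regulated membrane protein of the endoplasmic reticulum and lysosome, had 81.6, 85.9 and 91.1 CPM in PKM2 KO livers, against 101, 84.1 and 68.5 CPM in WT livers. WT livers were both above and below (log2 fold change 0.03, SE 0.155, adjusted p = 0.982), and the sign was negative without PKM2 KO replicate 3 (-0.0122) or WT replicate 3 (-0.0993), while it was 0.337 against WT 3 alone. Mylip, a ubiquitin ligase that sends lipoprotein receptors to degradation, ranged over 10 to 12 CPM in PKM2 KO livers and over 8.66 to 13.3 CPM in WT livers (log2 fold change -0.02).

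Efflux genes differed in how the WT livers ranked. Abca1, which loads cholesterol onto lipid-poor apolipoproteins, had 203, 173 and 177 CPM in PKM2 KO livers 1 to 3, against 142, 206 and 278 CPM in WT livers 1 to 3. The PKM2 KO livers lay inside the WT range (log2 fold change -0.18, SE 0.234, adjusted p = 0.92), and without WT replicate 3, the highest liver, the log2 fold change was 0.0851, while against WT 3 alone it was -0.589. Abcg5 and Abcg8 encode the partner subunits of the transporter that secretes sterols into bile, and their values by liver are given as a pair, a choice made after they were seen. Abcg5 had 70.9, 82.4 and 87.6 CPM in PKM2 KO livers, against 71.4, 35.8 and 62.9 CPM in WT livers (log2 fold change 0.50, SE 0.244, adjusted p = 0.732). Abcg8 had 102, 131 and 136 CPM in PKM2 KO livers, against 112, 55.8 and 99.9 CPM in WT livers (log2 fold change 0.46, SE 0.258, adjusted p = 0.758). WT 2 was the lowest liver for both, and WT 1 overlapped the PKM2 KO livers.

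The count of Abcg8 relative to Abcg5 was 1.43, 1.59 and 1.55 in PKM2 KO livers and 1.56, 1.56 and 1.59 in WT livers. This ratio spanned 1.11-fold over the 6 livers, while the genes themselves spanned 1.99-fold and 2-fold among WT livers. Between their start sites lie the 109 bases printed above, which hold no NF-Y box.

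The fold changes of the esterification genes had opposite signs, and neither gene passed the threshold. Soat2, the acyltransferase of hepatocytes and intestine, had 27, 29.2 and 34.7 CPM in PKM2 KO livers 1 to 3, against 26.5, 19.6 and 21.9 CPM in WT livers 1 to 3. WT 1 lay just under the lowest PKM2 KO liver (log2 fold change 0.42, SE 0.15, adjusted p = 0.641). Soat1, the acyltransferase of macrophages and most other cells, had 2.9, 2.15 and 2.61 CPM in PKM2 KO livers, against 3.5, 3.67 and 4.25 CPM in WT livers. Every PKM2 KO liver was below every WT liver (log2 fold change -0.58, SE 0.189, adjusted p = 0.608). The count of Soat2 relative to Soat1 was 9.32, 13.6 and 13.3 in PKM2 KO livers and 7.57, 5.34 and 5.16 in WT livers. That separation follows from those of the genes themselves. It was at the smallest two-sided p that the exact permutation test allows here (0.1, adjusted p = 0.2 over 4 ratios).

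The 11 markers of macrophages and Kupffer cells (Adgre1 under its older symbol Emr1) summed to 444, 394 and 416 CPM in PKM2 KO livers and to 491, 544 and 537 CPM in WT livers, without overlap of the sums. All 11 had negative fold changes, and 0 passed the threshold (lowest adjusted p = 0.466 in edgeR). Of them 4 were lower without overlap between genotypes, where 6.27% of all genes were. At an unadjusted p under 0.05 in edgeR 5 were lower, where 4.37% of all genes were. Those without overlap were C1qa, C1qb, C1qc and Cd68, at log2 fold changes of -0.59, -0.49, -0.47 and -0.53. Emr1 (-0.43) and Marco (-1.33) overlapped. Cd5l, Vsig4 and Clec4f were the closest between genotypes of the 11, at -0.05, -0.11 and -0.12. The part of macrophages and Kupffer cells in the Soat1 difference was not tested. In whole liver fewer cells of a type and less RNA per cell cannot be told apart. Markers of neutrophils summed to 4.23 to 5.41 CPM in PKM2 KO livers and 6.76 to 16.8 CPM in WT livers. Those of adipocytes summed to 6.72 to 19.4 and 12.4 to 33.1 CPM, in the same order of genotypes. Cholangiocyte markers summed to 28.6 to 34.1 CPM in PKM2 KO livers and to 35.6, 51.3 and 36.4 CPM in WT livers 1 to 3. They were highest in WT 2, which also had the highest acinar sum, and the part of pancreas in them was not tested.

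The lists of 5 neighbouring pathways had medians of -0.06 to 0.06, nearer to that of all genes than the members' 0.15 and the hepatocyte markers' 0.14, and no gene of them passed the threshold. Of 11 genes of SREBP activation and sterol-regulated protein degradation, 4 had positive fold changes (median log2 -0.06). Syvn1, a ubiquitin ligase of the endoplasmic reticulum, had 64.3, 64.5 and 59.2 CPM in PKM2 KO livers, against 46.6, 137 and 134 CPM in WT livers. WT 1 was below and the other WT livers above the PKM2 KO livers (log2 fold change -0.75, adjusted p = 0.732). Of 10 genes of the isoprenoid branches, 4 were positive (median -0.03). Pdss1, a subunit of the enzyme that builds the ubiquinone tail, averaged 2.144 ± 0.145 CPM in PKM2 KO livers and 1.668 ± 0.0204 CPM in WT livers (log2 fold change 0.36, adjusted p = 0.751). Of 15 genes of sterol transport and the liver X receptors, 6 were positive (median -0.05), with Gramd1c, a sterol transfer protein at membrane contacts, at 0.38 (adjusted p = 0.735).

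Of 16 genes of fatty acid synthesis, 10 were positive (median 0.06). Srebf1, which encodes the SREBP-1 forms that drive fatty acid synthesis, had 544, 391 and 429 CPM in PKM2 KO livers, against 279, 221 and 231 CPM in WT livers. All PKM2 KO livers were above all WT livers, as for Insig1 but not for Srebf2 (log2 fold change 0.90, SE 0.173, adjusted p = 0.488). Scd1, the stearoyl-CoA desaturase, had 6820, 4730 and 3770 CPM in PKM2 KO livers, against 16300, 4910 and 11000 CPM in WT livers (log2 fold change -1.07, SE 0.445, adjusted p = 0.68). Of 10 genes of bile acid synthesis, the route by which cholesterol is broken down, 6 were positive (median 0.04). Hsd3b7, an early enzyme of that route, averaged 513.2 ± 50.6 CPM in PKM2 KO livers and 360 ± 54.2 CPM in WT livers, without overlap (log2 fold change 0.51, SE 0.159, adjusted p = 0.583).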

How the data were processed

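Liver RNA of 3 PKM2 KO and 3 WT mice was analysed from a deposited table of expected counts, which the authors made with RSEM 1.2.12 and Bowtie 1.0.1 on build mm9, per the submitters' processing notes. The gene annotation and the strandedness of counting are not given in the sources used here. Expected counts were rounded, filtered with filterByExpr (13058 genes kept), scaled by TMM and compared with the quasi-likelihood F test of edgeR 4.0.16 in R 4.3.3, with genotype as the only term and Benjamini-Hochberg adjustment over all genes at 0.05. Fold changes are PKM2 KO over WT. The SE is approximate, taken from the F statistic as the size of the log2 fold change over the root of F. Levels are CPM with TMM scaling. Members were found by symbol, with no measured value in the rule, but the members and lists were chosen with earlier results of these data known. The rule for named genes took, per role, the member with the smallest p and the one with the highest CPM, all members without overlap, the 4 regulators, and at most 2 genes per neighbouring list. Alternatives included DESeq2 1.42.0 and limma 3.58.1. Counts of 12924 genes were also simulated, with variance from the fitted trend alone and no liver set apart. In them the test called 70% of 100 genes changed by 1 and 99% of 100 changed by 2 on the log2 scale. WT 1 and WT 2 were set apart in the real data, so these shares do not give the power for the members. The labels call the mice independent. The most similar libraries, PKM2 KO 2 and PKM2 KO 3, had a chi-square of 39.43 per gene, so none was counted as a repeat. Figures used Python 3.11.15 and matplotlib 3.10.9.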

Additional observations from a re-analysis of the deposited data

How the results depend on the processing

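Over 17 alternatives, 0 members passed the threshold in edgeR or limma voom, and 1 (Insig1) passed with DESeq2. The count of all genes called was 3 in the reported fit, 5 without a filter on low counts, 97 with DESeq2, 5 with limma voom, 6 with the robust fit, 3 to 51 with each liver left out, and 163 against WT 3 alone. In that last fit the lone WT liver is assumed to vary like the PKM2 KO livers. The median log2 fold change of the members was 0.0851 to 0.217 with each liver left out and 0.29 with WT 3 alone, and 0.152 to 0.189 under the other alternatives. Members without overlap numbered 8 to 14 with each liver left out and 22 with WT 3 alone, where the share of all genes was 16.1% to 34.7% and 67.6%, since fewer livers overlap less often. With library totals there were 9 higher and 1 lower, where the shares of all genes were 6.05% and 4.54%. These overlap counts, and a fit with adjusted deviances, were added after the data were seen. Signs turned round, with each liver left out, within -0.17 to 0.0689 for Srebf2, -0.00193 to 0.143 for Scap, -0.0356 to 0.22 for Sc5d, -0.0993 to 0.184 for Tmem97 and -0.388 to 0.0851 for Abca1. With WT 3 alone they turned round for Scap (-0.0369) and Stard4 (-0.0109). The cause of these moves was not tested. The replicate numbers are shared by the genotypes but the labels do not say that they pair mice, and same-numbered livers had deviations correlated at 0.0131, 0.0522 and -0.124. With the replicate number as a block, 7 genes and 0 members were called and the members' median was 0.166.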
